A study of Mus musculus with 8 samples.

Results

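The transcripts described here encode the machinery of oxidative phosphorylation, and they were read out by RNA sequencing in collecting ducts of the outer medulla of the kidney of C57BL/6J mice. Members were rows whose gene symbol starts with Nduf, Uqcr, Atp5, Cox4i, Cox5, Cox6, Cox7 or Cox8, or with mt-Nd, mt-Co, mt-Cytb or mt-Atp, plus Sdha, Sdhb, Sdhc, Sdhd, Cyc1 and Cycs. Of 126 such rows, 14 with pseudogene names were left out. The remaining 112 of 55291 listed genes comprised 99 encoded in the nucleus and 13 encoded in the mitochondrial genome. GENCODE lists 108 of them as protein coding and 4 (Ndufb4c, Cox6c2, Ndufs6b and Ndufa11b) as processed pseudogenes.

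The diets held 0.3% salt (normal) or 3% salt (high) and were given for 3 days, and no other treatment or genotype is given. Each of the 8 libraries, 4 per diet, was made from 100 to 120 ducts dissected out of the enzyme-treated kidneys of 1 mouse. Libraries are named by the number in their column, which is 1, 2, 3 or 6 for normal salt and 2, 3, 4 or 6 for high salt. Depth ranged from 64.8 to 94.1 M estimated counts, and CPM (counts scaled to the same total in every library) correlated on a log2 scale between libraries at 0.962 to 0.989 across genes. Marker genes of principal cells summed to 22331 to 28193 TPM (scaled to the same total after division by transcript length) on normal salt and to 31156 to 36627 on high salt. Aqp2 made up much of that sum, at a mean of 11810 TPM on normal salt and 18167 on high salt. As mean log2(CPM + 1), the principal cell markers stood at 10.02 and 10.07, and the diets overlapped. Intercalated cell markers summed to 6753 to 8976 TPM over all libraries, so markers of both duct cell types were present. Among genes of other cells, thick ascending limb markers reached 196 to 1862 TPM on high salt and 527 to 1359 on normal salt.

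Oxidative phosphorylation passes electrons from NADH and succinate through complexes I to IV of the inner mitochondrial membrane, and the proton gradient this builds drives ATP synthase, complex V. Complexes I, III, IV and V combine subunits from both genomes, whereas complex II and the carrier cytochrome c are wholly nuclear. In the collecting duct, ATP made this way fuels the sodium pump of principal cells and the proton pumps of intercalated cells. Nuclear subunit genes are known targets of the factors NRF1, GABP, YY1 and the estrogen-related receptors, and mitochondrial DNA is transcribed by its own polymerase as long precursors that are cut into single transcripts.

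High salt produced no called change in any member. Of the 103 members tested, 0 had an adjusted p under 0.05 by limma with Benjamini-Hochberg adjustment, against 0.0821% of all 13401 genes tested, and the smallest adjusted p was 0.649, for Ndufv1. At an unadjusted p under 0.05 the count was also 0, against 10.3% of all genes. The 4 libraries of one diet lay wholly above or below those of the other in CPM for 0 members, against 6.4% of all genes. The 9 members left untested were below 1 CPM in more than 4 libraries, and were Cox4i2, Cox6a2, Cox6c2, Cox7b2, Cox8b, Cox8c, Ndufa11b, Ndufa4l2 and Ndufs6b.

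The 2 genomes took different amounts of each library. On the TPM scale, which corrects for transcript length, the 13 mitochondrial members held 15.29% ± 0.946 (SD, n = 4) of normal-salt libraries and 14.01% ± 0.447 (SD, n = 4) of high-salt libraries. The nuclear members held 5.49% ± 0.961 (SD, n = 4) and 5.62% ± 0.28 (SD, n = 4). Together, members made up 20.8% ± 1.64 (SD, n = 4) of transcripts on normal salt and 19.6% ± 0.357 (SD, n = 4) on high salt, and these ranges overlapped.

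**Figure D1:**
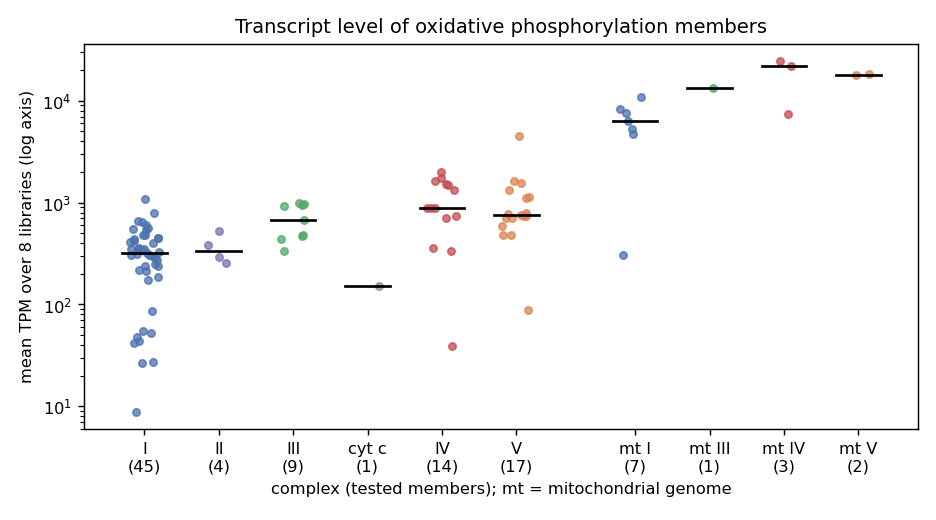
Mean TPM over 8 libraries (log axis) of each tested member, 1 point per gene and a black line at the median, by complex, with the mitochondrial genes on the right. Medians run from 323.5 TPM for nuclear complex I to 891 for nuclear complex IV, and from 6324 for mitochondrial complex I to 21814 for mitochondrial complex IV.

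Levels followed role as well as genome. Over all 8 libraries the nuclear members had a median of 457.6 TPM. The highest were Atp5b, the catalytic beta subunit of ATP synthase, at 4481 TPM, Cox4i1, a complex IV subunit, at 2002 TPM, and Cox8a at 1756 TPM. The complex I assembly factors, which build the complex without staying in it, had a median of 42.9 TPM. The 7 nuclear core subunits of complex I, which form its electron-transfer arm, ranged from 175 TPM to the 323.5 TPM of Ndufv1. Among mitochondrial genes mt-Co1 and mt-Co2, the catalytic subunits of complex IV, stood at 24322 and 21814 TPM, and mt-Nd6 was the lowest at 302.9 TPM. The mt-Nd6 gene is the only one of the 13 on the other strand, and its annotated end overlaps mt-Nd5.

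Several mitochondrial genes have near-identical nuclear copies, which bears on how their reads were divided. On chromosome 1 the genome of build mm10 holds a stretch of 4663 bases, chr1:24611535-24616197 on the minus strand, with 7 pseudogenes at least 99% identical to mt-Co1, mt-Co2, mt-Atp6, mt-Co3, mt-Nd3, mt-Nd4l and mt-Nd4. The copies of mt-Co2, mt-Atp6, mt-Co3, mt-Nd4l and mt-Nd4 had no mismatch over the bases aligned, so no base in them could tell the loci apart. The other 2 differ from their gene by 1 base each over the aligned bases (483 of the 492 bases of Gm29216 and all 345 of Gm28438), which the capitals mark below. Counting from base 1 of the gene, Gm29216 differs from mt-Co1 (chrM:5328-6872) at A1066T, and Gm28438 differs from mt-Nd3 (chrM:9459-9806) at T3C.
mt-Co1: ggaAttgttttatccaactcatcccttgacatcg
Gm29216: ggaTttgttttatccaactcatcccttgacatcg
mt-Nd3: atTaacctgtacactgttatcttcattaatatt
Gm28438: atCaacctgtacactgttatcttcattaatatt

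The copies were credited with 11.3% ± 0.876 (SD, n = 4) of the CPM of mitochondrial members and copies on normal salt and with 10.7% ± 0.807 (SD, n = 4) on high salt. Gm28437, the copy of mt-Co3, took 63.0% ± 2.47 (SD, n = 4) and 63.5% ± 3.03 (SD, n = 4) of the pair, more than the mitochondrial gene itself. Gm29216 stood at 1484 CPM in normal-salt library 1 and at 10.9 to 24.5 CPM in the other 7 libraries. The values of these 7 mitochondrial genes are therefore uncertain as single genes. With each member summed with its copies, the median log2 fold change of the mitochondrial members was -0.20, against -0.18 as listed.

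**Figure D2:**
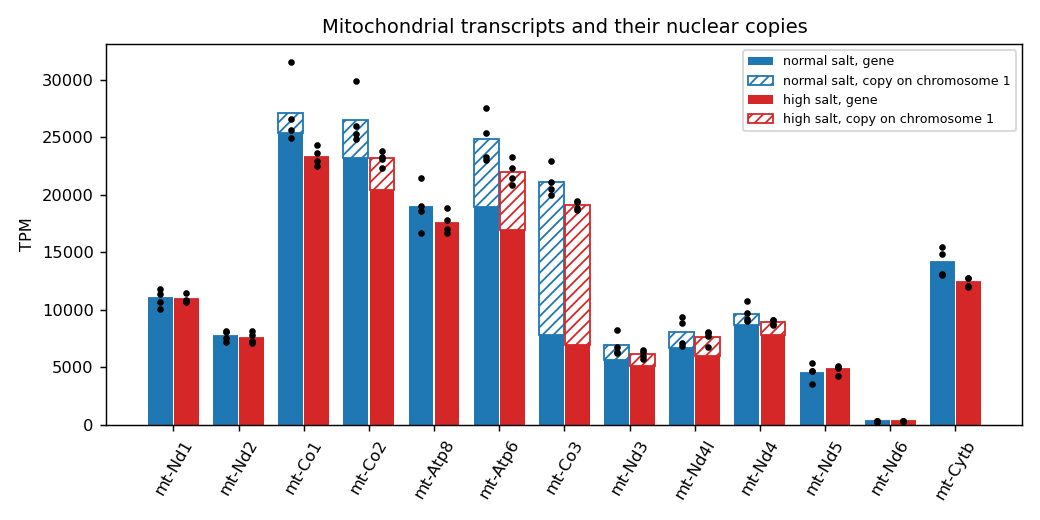
Mean TPM of the 13 mitochondrial members (solid) with their copies on chromosome 1 stacked on top (hatched), for normal and high salt, with each library's sum as a black point. Gene and copy are each scaled by their own length, so a copy shorter than its gene, such as Gm29216 of mt-Co1, weighs more per read. Most of the mt-Co3 column is the copy, and mt-Nd6 is barely visible at 302.9 TPM.

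On high salt 12 of the 13 mitochondrial members were lower, and mt-Nd5 had a log2 fold change of 0.02. Log2 fold changes are high minus normal salt on the log2(CPM + 1) scale. The 13 ranged from -0.26 to 0.02 with a median of -0.18, beside a median of 0.01 over all genes tested, and none was called. These transcripts are cut from shared precursors and are not independent of each other.

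For mt-Cytb, the mitochondrial subunit of complex III, the normal-salt libraries 1, 2, 3 and 6 held 10786, 7123, 7286 and 7961 CPM. The high-salt libraries 2, 3, 4 and 6 held 6911, 6557, 7137 and 6669 CPM. Normal-salt library 1 was highest and the diets overlapped only through normal-salt library 2 and high-salt library 4. The log2 fold change was -0.26 with a standard error of 0.18 and an adjusted p of 0.678 by limma (95% interval -0.66 to 0.14).

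For mt-Co1, normal-salt libraries held 24693, 19304, 20414 and 20375 CPM and high-salt libraries 18276, 17915, 19350 and 17708 CPM. As with mt-Cytb, the overlap was between normal-salt library 2 and high-salt library 4. The log2 fold change was -0.21 with a standard error of 0.21 and an adjusted p of 0.788 by limma. The catalytic partner mt-Co2 stood at 6866 ± 1867 CPM (SD, n = 4) against 5608 ± 241 CPM (SD, n = 4), a log2 fold change of -0.26. For mt-Nd5, a proton-pumping subunit of complex I, the means were 4355 ± 314 CPM (SD, n = 4) and 4405 ± 351 CPM (SD, n = 4).

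The unit mattered for 2 of these genes. In TPM, mt-Co1 held 24903, 24745, 25483 and 26441 on normal salt and 23535, 22844, 24200 and 22428 on high salt. Every high-salt value was below every normal-salt value. For mt-Cytb the values were 15437, 13108, 13049 and 14845 TPM against 12724, 11990, 12774 and 12090 TPM, again without overlap. In TPM the diets lay apart with high salt lower for these 2 of the 103 tested members, and for 2.13% of all genes. The share among all members was thus no higher than over all genes. Split by genome, it was 2 of 13 mitochondrial members, whose transcripts are not independent, and 0 of 90 nuclear members. On the log2(TPM + 1) scale the log2 fold change of mt-Co1 was -0.13 (adjusted p = 0.712) and that of mt-Cytb -0.18 (adjusted p = 0.618), both by limma. Of the 7 genes summed with their copies, mt-Co1, mt-Co2 and mt-Co3 did not overlap between diets in TPM. The sums of mt-Co1 were 31536, 24893, 25599 and 26558 TPM on normal salt and 23604, 22909, 24292 and 22493 TPM on high salt. In normal-salt library 1 the copy Gm29216 added 6633 TPM, though it held 5.67% of the pair's CPM. Gm29216 spans 492 bases and mt-Co1 1545, so TPM gives reads credited to the copy more weight. The high sum of library 1 rests on that, as mt-Co1 alone was highest in library 6. The sums of mt-Co2 ran from 24831 to 29856 TPM on normal salt and from 22347 to 23841 on high salt, and those of mt-Co3 from 20014 to 22959 and from 18681 to 19487. These sums were singled out after their values were seen and were not tested.

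The remaining mitochondrial members all overlapped in CPM. The log2 fold changes were -0.25 for mt-Co3, -0.25 for mt-Atp6 and -0.14 for mt-Atp8, the latter pair forming part of the membrane sector of ATP synthase. Among complex I subunits they were -0.25 for mt-Nd4, -0.18 for mt-Nd4l, -0.17 for mt-Nd3, -0.13 for mt-Nd2, -0.09 for mt-Nd1 and -0.02 for mt-Nd6. The smallest adjusted p of the 13 by limma was 0.663, for mt-Nd4l, whose libraries held 490.7, 548.7, 451.2 and 503.6 CPM against 434.7, 456.1, 518.7 and 365.3 CPM.

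The nuclear members centred on no difference. Of 90 tested, 51 were higher and 39 lower on high salt, with log2 fold changes from -0.18 to 0.21 and a median of 0.01, the same as over all genes. Their median standard error was 0.17. The median was 0.19 without normal-salt library 1, -0.06 without normal-salt library 2, -0.09 without normal-salt library 6 and -0.02 without high-salt library 6. Summed, the nuclear members held 29315, 18772, 22309 and 17527 CPM in normal-salt libraries 1, 2, 3 and 6. The high-salt libraries 2, 3, 4 and 6 held 20581, 23174, 21669 and 23452 CPM. The high-salt sums lay inside the span of the normal-salt ones, and the means were 21981 ± 5292 (SD, n = 4) and 22219 ± 1344 (SD, n = 4). The mitochondrial members summed to 65252 ± 11160 CPM (SD, n = 4) and 56323 ± 2272 CPM (SD, n = 4).

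**Figure D3:**
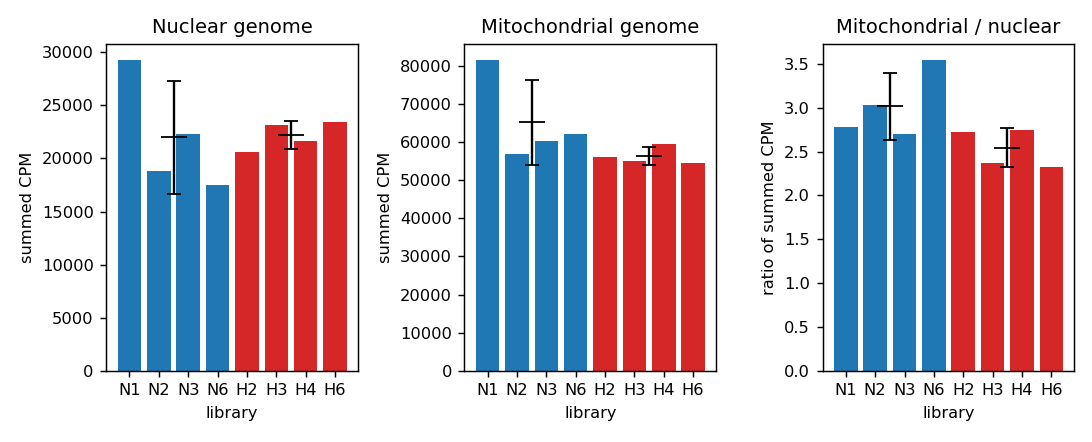
Summed CPM of the nuclear members, of the mitochondrial members, and the ratio of these sums, by library (N normal salt, blue; H high salt, red). Black marks give each diet's mean ± SD (n = 4). Normal-salt library 1 is highest in both sums, at 29315 and 81670 CPM.

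Per unit of nuclear transcript, the mitochondrial sum in CPM was 2.79, 3.03, 2.70 and 3.55 in the normal-salt libraries. On high salt the ratio was 2.72, 2.38, 2.75 and 2.33. The ratios overlapped, with normal-salt libraries 2 and 6 highest and high-salt libraries 3 and 6 lowest. In these bulk samples fewer cells of a type and less RNA per cell cannot be told apart.

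In complex I, which oxidises NADH, 27 of 45 tested nuclear members were higher and 18 lower, and their median was 0.01. By role, 4 of 7 core subunits, 21 of 29 accessory subunits and 1 of 8 assembly factors were higher, and none was called. Ndufv1, the core subunit that binds NADH and flavin (chr19:4007384-4012806), held 300.8, 228.2, 272.3 and 206.5 CPM on normal salt and 264.0, 292.5, 274.2 and 308.2 CPM on high salt. Only normal-salt libraries 2 and 6 fell below all 4 high-salt libraries. The log2 fold change was 0.19 with a standard error of 0.12 (adjusted p = 0.649 by limma, 95% interval -0.08 to 0.46). The other core subunit of the flavin arm, Ndufv2, had a log2 fold change of -0.01, and Ndufs3 had -0.03.

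Among accessory subunits, Ndufb6, part of the membrane arm, held 162.6, 98.8, 112.3 and 84.0 CPM on normal salt and 112.5, 137.7, 130.1 and 134.7 CPM on high salt. Normal-salt library 1 was above every other library and the remaining normal-salt libraries were below every high-salt one. The log2 fold change of 0.21 with a standard error of 0.17 was the highest among members and was not called (adjusted p = 0.740 by limma). Ndufs4, an accessory subunit of the NADH-oxidising arm, stood at 83.3 ± 22.0 CPM (SD, n = 4) and 73.0 ± 3.88 CPM (SD, n = 4), a log2 fold change of -0.15. Ndufb8 and Ndufa3, the most abundant accessory subunits per length, both had a log2 fold change of 0.04. The assembly factors Ndufaf8, Ndufaf3 and Ndufaf4 had -0.08, -0.02 and 0.12. A further member, Ndufb4c, is a processed pseudogene that held 77.9% of the CPM shared with its parent Ndufb4, whose level is uncertain for that reason.

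Complex II, succinate dehydrogenase, had 1 of 4 members higher. Sdha, the flavoprotein that oxidises succinate, held 742.8, 617.9, 706.1 and 612.2 CPM on normal salt and 668.8, 769.1, 685.4 and 755.0 CPM on high salt. The diets overlapped, and the log2 fold change of 0.11 had a standard error of 0.10 (adjusted p = 0.779 by limma). The membrane anchors Sdhd and Sdhc had log2 fold changes of -0.11 and -0.09. In complex III, 6 of 9 nuclear members were higher. The values were 0.14 for the core protein Uqcrc1, -0.09 for Uqcrh, which helps dock cytochrome c, and -0.06 for Uqcr10. Cycs, somatic cytochrome c, had 0.07, and near-identical genes at other loci held 52.2% of the CPM shared with it.

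Complex IV, cytochrome c oxidase, had 7 of its 14 tested nuclear members higher. Cox5a held 384.4, 210.0, 270.5 and 174.7 CPM on normal salt and 236.0, 296.8, 272.6 and 308.6 CPM on high salt. High-salt values lay within the wider normal-salt range, and the log2 fold change was 0.16 with a standard error of 0.21. Cox7a2l, a relative of Cox7a2 (chr17:83501918-83517330), held 242.5, 166.8, 210.9 and 192.3 CPM on normal salt. On high salt it held 184.9, 193.0, 166.4 and 167.1 CPM. Its log2 fold change of -0.18, with a standard error of 0.12, was the lowest among nuclear members (adjusted p = 0.650 by limma). The abundant subunits Cox4i1 and Cox8a had 0.05 and -0.07.

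Complex IV also has isoforms restricted to certain tissues. Cox7a1, known from heart and skeletal muscle, made up 32.9% ± 3.49 (SD, n = 4) of Cox7a1 and Cox7a2 transcripts on normal salt and 34.1% ± 1.95 (SD, n = 4) on high salt, by TPM. Cox6b2, known from testis, made up 2.63% ± 0.678 (SD, n = 4) and 2.55% ± 0.326 (SD, n = 4) of the Cox6b pair. Cox4i2, the oxygen-responsive counterpart of Cox4i1, was at 0.01 to 0.29 CPM in all libraries. An estimated count was worth 0.0106 to 0.0154 CPM. Cox6a2, Cox7b2 and Cox8c were listed at 0 in all 8 libraries, Cox8b was above 0 in 2 libraries at up to 0.11 CPM, and Ndufa4l2, a hypoxia-inducible relative of Ndufa4, averaged 0.50 TPM.

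In complex V 9 of 17 nuclear members were higher and 8 lower. Atp5b and Atp5a1, the beta and alpha subunits of the catalytic head, had log2 fold changes of 0.11 and 0.10. The membrane ring is made of 1 protein, subunit c, that 3 genes encode with different import signals. Atp5g1 (chr11:96068852-96075670) held 316.0, 186.4, 220.7 and 164.8 CPM on normal salt and 210.7, 268.1, 252.5 and 258.4 CPM on high salt. Apart from normal-salt library 1, only library 3 on normal salt reached the high-salt range. The log2 fold change was 0.19 with a standard error of 0.18 (adjusted p = 0.763 by limma). Atp5g2 had -0.11 and Atp5g3 0.03.

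As a share of the 3 subunit c genes in TPM, Atp5g1 held 30.6%, 30.7%, 29.0% and 28.5% in the normal-salt libraries. On high salt it held 31.4%, 32.0%, 34.7% and 31.4%. All 4 high-salt shares were above all 4 normal-salt shares, with means of 29.7% ± 1.12 (SD, n = 4) and 32.4% ± 1.57 (SD, n = 4). Atp5g3 held 66.1% and 64.3% and Atp5g2 held 4.16% and 3.37%. This share was picked out after its values were seen and was not tested, and a near-identical gene at another locus held 12.0% of the CPM shared with Atp5g1.

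**Figure D4:**
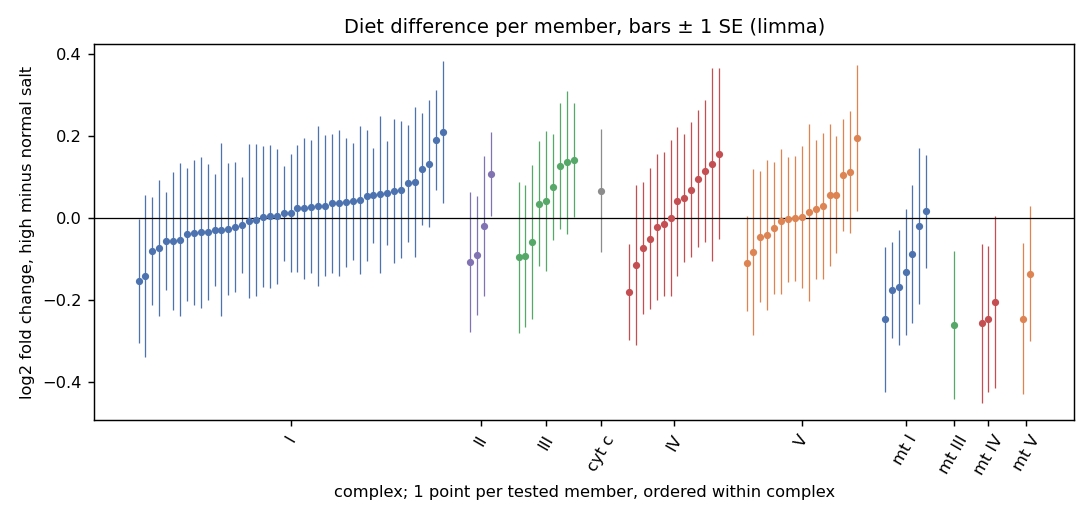
Log2 fold change, high minus normal salt on the log2(CPM + 1) scale, of the 103 tested members, with bars of 1 standard error, by complex. Nuclear members spread on both sides of 0 between -0.18 and 0.21, and 12 of 13 mitochondrial members lie below 0.

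One library set much of the spread. Normal-salt library 1 was the highest of the 8 libraries for 86 of 90 nuclear and 11 of 13 mitochondrial members, and normal-salt library 6 was the lowest for 70 of 90 nuclear members. The median deviation of nuclear members from their mean over the libraries was 0.51, -0.22, 0.02 and -0.32 on the log2(CPM + 1) scale in normal-salt libraries 1, 2, 3 and 6. In high-salt libraries 2, 3, 4 and 6 it was -0.09, 0.04, -0.01 and 0.10. Members varied together across libraries: 71 of 90 nuclear members correlated above 0.9 with the median profile of the others over the 8 libraries, and 53 did so over the 7 libraries without normal-salt library 1. Least like the rest were Ndufaf6 (0.56), Atp5g2 (0.57), Ndufaf8 (0.59), Cox6b2 (0.59) and Cox7a2l (0.62). These correlations describe shared libraries, and members are not replicates.

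Transcript length moved with these deviations over all genes. In normal-salt library 1, genes whose longest transcript is under 500 nt deviated by a median of 0.47 (202 genes), those of 1000 to 2000 nt by 0.23 (2196 genes) and those over 8000 nt by -0.44 (725 genes). In normal-salt library 6 the same 3 classes were at -0.185, -0.11 and 0.181, in that order. Cytosolic ribosomal protein genes, which are short and serve translation, stood at 0.38 and -0.20 in these 2 libraries. Nuclear members had a median longest transcript of 1171 nt, beside 3287 nt over all tested genes. Centred on genes of like length, the nuclear members deviated by 0.20 in normal-salt library 1 and by -0.19 in library 6.

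**Figure D5:**
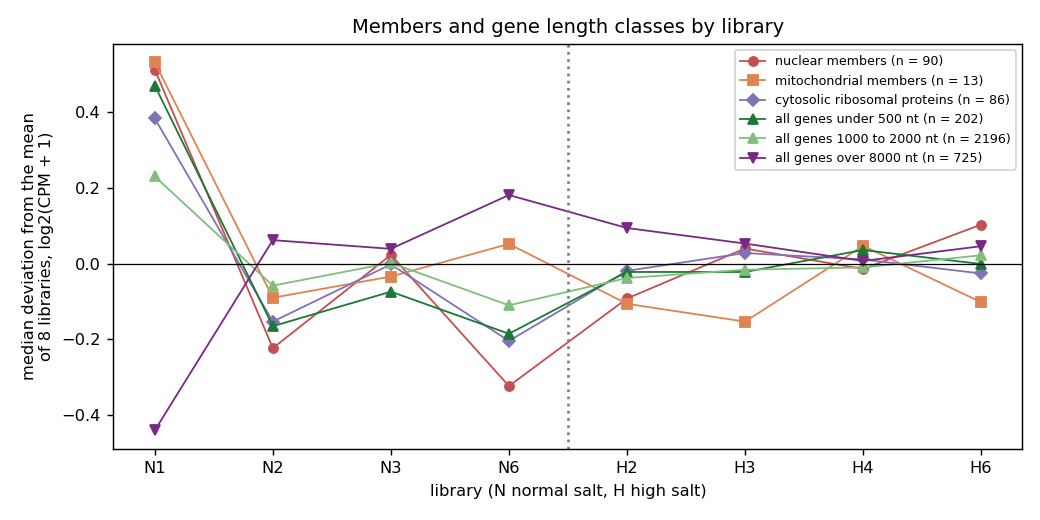
Median deviation from the mean of 8 libraries, on the log2(CPM + 1) scale, for nuclear and mitochondrial members, cytosolic ribosomal protein genes and 3 length classes of all genes, by library. In N1 the nuclear members (0.51) lie above the genes of 1000 to 2000 nt (0.23), and the genes over 8000 nt lie on the other side of 0 (-0.44).

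Markers of other cells also differed in normal-salt library 1. Its 8 fibroblast and pericyte markers summed to 115.5 TPM, against 13.6 to 56.0 in the other libraries. Its 9 macrophage markers summed to 54.9 against 12.4 to 25.4, and its 5 erythrocyte markers to 37.9 against 0.48 to 6.43. Not every marker of these lists was high there. Ptprc of the macrophage list was at 2.64 TPM, against 3.20 to 6.57 elsewhere, and the pericyte marker Rgs5 at 1.12 against 0.95 to 2.95. Thin limb markers summed to 288 TPM in that library, against 405 to 556 in the others, and endothelial markers to 122.7 against 113.9 to 193.6. Thick ascending limb cells are rich in mitochondria. All 13 of their tested markers (of 14 listed) were lower on high salt with none called, at sums of 1359, 725, 527 and 1132 TPM against 196, 228, 394 and 1862 TPM. None of the 14 was at 0 in all libraries. Proximal tubule markers went the other way: all 4 tested (of 12 listed) were higher on high salt with none called. Their sums were 253.4, 134.5, 121 and 149.7 TPM on normal salt and 83.8, 164.6, 386 and 373.4 TPM on high salt. Of 13 intercalated cell markers 11 were lower with none called. At an unadjusted p under 0.05, 5 were lower, against 4.37% of all genes, and 4 did not overlap between diets in CPM, against 6.4%. Of 12 principal cell markers 7 were higher and 5 lower, and 5 did not overlap in CPM, against the same 6.4% of all genes. The 1 called, against 0.0821% of all genes, was the sodium channel subunit Scnn1a, with a log2 fold change of -1.33 (adjusted p = 0.026 by limma). The part of length, of these cells and of this library in the diet comparison was not tested beyond the values that follow.

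Without normal-salt library 1, 87 of 90 nuclear members were higher on high salt and 3 lower, with a median log2 fold change of 0.19. That library was the highest for 86 of the 90, so leaving it out lowers their normal-salt means. The counts below follow in large part from that choice and were not tested as a set. At an unadjusted p under 0.05, 26 nuclear members were higher, which is 28.9% of those tested, against 7.81% of all genes. None was called by limma, against 0.373% of all genes, and the lowest adjusted p was 0.162, for Ndufb6. The 26 included 12 of complex I, 4 of complex III, 6 of complex IV and 4 of complex V. The largest log2 fold changes were 0.40 for Cox7a1, 0.39 for Ndufb6, 0.38 for Atp5g1, 0.36 for Cox5a and 0.33 for Uqcrq, a small subunit of complex III. Diets lay apart with high salt higher for 9 of the 90 nuclear members, against 7.14% of all genes. The mitochondrial members then had 3 higher and 10 lower and a median of -0.08.

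With that library left out and genes of like length used for centring, 82 of 90 nuclear members were higher, the median was 0.12, and 18 passed an unadjusted p under 0.05, against 7.17% of all genes. None was called, against 0.288% of all genes. For the mitochondrial members the median was -0.16 with 12 of 13 lower. The choice of the library left out bears on these counts as well. Nuclear members share their libraries, so a count of them carries less weight than the same count of unrelated genes.

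Genes that regulate, build or serve the chain were taken from lists of related genes. None of these was called by limma. Of 12 tested transcriptional regulators 6 were higher and 6 lower. Ppargc1a, the coactivator of mitochondrial biogenesis, stood at 261 ± 57.2 CPM (SD, n = 4) on normal salt and 210 ± 47.6 CPM (SD, n = 4) on high salt, a log2 fold change of -0.32 (adjusted p = 0.622). Pprc1, a related coactivator, stood at 16.8 ± 3.51 CPM (SD, n = 4) and 26.1 ± 6.17 CPM (SD, n = 4), a log2 fold change of 0.60 (adjusted p = 0.298 by limma). Esrra and Nrf1, DNA-binding factors for nuclear subunit genes, had -0.15 and -0.15.

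Among 25 genes of mitochondrial DNA upkeep and transcription 14 were higher and 11 lower. Tfam, which packages mitochondrial DNA, had a log2 fold change of 0.05 and Polrmt, the mitochondrial RNA polymerase, 0.11. Lrpprc, which stabilises mitochondrial messenger RNA, stood at 108 ± 20.6 CPM (SD, n = 4) and 135 ± 13.2 CPM (SD, n = 4), a log2 fold change of 0.33 (adjusted p = 0.422 by limma). Polg2, the accessory subunit of the mitochondrial DNA polymerase, had -0.41 (adjusted p = 0.530 by limma).

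Of 41 assembly factors of complexes II to V, 16 were higher and 25 lower, among them Taco1, which activates translation of mt-Co1, at 0.30 and Sdhaf4, which assembles complex II, at -0.30. The complex I assembly factors outside the Nduf names were 6 higher and 4 lower, with Timmdc1 at 0.16 and Lyrm2 at -0.15. Of 78 mitochondrial ribosomal genes 33 were higher and 45 lower, with Mrps28 at 0.39 (adjusted p = 0.383 by limma) and Mrpl24 at -0.17. Both mitochondrial ribosomal RNAs were higher, mt-Rnr1 by 0.20. Among carriers, inhibitor and uncoupling proteins, 8 were higher and 3 lower. Slc25a30, a mitochondrial carrier, had 0.47 (adjusted p = 0.475 by limma), the outer membrane channel Vdac3 had -0.11 and Atpif1, the inhibitor of ATP synthase, had 0.01.

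The promoters of nuclear members were searched for motifs of the factors named above. RefSeq promoters, on GRCm38.p6 and running from 250 bases before to 50 bases after the gene start, matched 77 of 99 nuclear members. Both strands were searched. The palindromic NRF1 motif, shown in capitals below, lay in 7 member promoters (9.09%), beside 1.32% of 17492 protein-coding promoters. The ETS core CCGGAAG, which GABP can bind, lay in 23.4% beside 11.9%, the YY1 motif AAGATGG in 14.3% beside 6.37%, and the estrogen-related receptor motif TCAAGGTCA in 2.6% beside 0.332%. TATAAA lay in 10.4% beside 13.3%. These are matches of letters, not measured binding. The NRF1 matches were in Atp5g2, Atp5k, Cox6a1, Ndufa11, Ndufaf4, Ndufaf5 and Uqcrc1, whose correlations with the median profile of the other nuclear members ran from 0.57 (Atp5g2) to 0.99 (Ndufa11). Of these, 2 abundant members are shown by the 250 bases before their start, 5′ to 3′ on the gene's strand, with the motif in capitals. Cox6a1, at 1536 TPM, is shown for chr5:115348959-115349208 and Atp5k, at 793.8 TPM, for chr5:108434400-108434649, both on the minus strand.
Cox6a1: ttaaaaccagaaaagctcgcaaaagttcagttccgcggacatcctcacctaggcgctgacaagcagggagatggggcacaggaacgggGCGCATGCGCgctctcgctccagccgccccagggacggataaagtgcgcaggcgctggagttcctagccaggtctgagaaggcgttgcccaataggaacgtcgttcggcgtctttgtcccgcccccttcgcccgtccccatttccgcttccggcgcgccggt
Atp5k: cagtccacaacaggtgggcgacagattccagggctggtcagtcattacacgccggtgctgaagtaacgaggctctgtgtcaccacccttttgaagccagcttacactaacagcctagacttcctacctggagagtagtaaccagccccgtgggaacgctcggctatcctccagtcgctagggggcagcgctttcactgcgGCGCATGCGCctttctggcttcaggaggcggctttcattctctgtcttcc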

How the data were processed

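The build mm10 and the tools FastQC and Trimmomatic are named in the submitters' processing notes. Which aligner, counter, strand setting and annotation were used is not stated in the sources read. The kit marks strand, per the labels' protocols. The authors deposited a CPM table that proved to be on a log2 scale with a floor of -5.29, and a TPM table. The planned test assumed linear CPM, so the log2 values were brought back to CPM, the floor subtracted, and each library rescaled to 1000000. The steps of low values gave estimated counts that were not whole, so no count model was used. Column names gave the diet but matched no single sample title, and 0 columns belonged to no sample. The labels state 1 mouse per library but not cage or day.

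Genes with at least 1 CPM in at least 4 of 8 libraries were tested (13401) by limma 3.58.1 (R 4.3.3) after taking log2(CPM + 1) (trended eBayes, two-sided, Benjamini-Hochberg over all genes, called under 0.05). On simulated data for this comparison (13450 genes tested on average) 43.4% of 1.5-fold and 98.0% of 2-fold changes were recovered and 5.25% of calls were false. The simulation drew genes independently at a single assumed spread, without shifts shared within a library such as those of normal-salt library 1. It also planted more changes than were called in the data, so its recovery rates need not hold for them. Copies were found with blastn 2.17.0 against GENCODE M21 transcripts (mitochondrial genes at 99% identity, nuclear at 95% over at least 150 bases and 50% of the shorter transcript).

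Members, lists and tests were chosen with earlier results of these data known. Values are given for all mitochondrial members, for the 2 most abundant members and the smallest p in each direction per role, for restricted isoforms, and for the smallest p in each direction per related list plus 6 regulators. Any other gene was named after its values were seen. Alternatives covered the pseudocount, filter, TPM, scaling, weights, a replicate block and leaving out each library. The summing of copies, the centring on length, the unblocked 6 libraries and the joint setting were chosen after seeing the data.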

Additional observations from a re-analysis of the deposited data

Results flagged for a closer look

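In 124 sets of 4 libraries (62 values in each diet), 12 held a library whose gap to the nearest other exceeded Dixon's 95% critical value as a share of the range, and chance flags about 1 in 20 sets. Normal-salt library 1 was far above the other normal-salt libraries for mt-Atp8 at 899 CPM (next 576), mt-Nd2 at 4692 CPM (next 3513), Cox8a at 627 CPM (next 392) and Ndufa3 at 182 CPM (next 106). The same library held 8331 CPM summed over the mitochondrial complex V genes (next 5426). Among nuclear copies it held 1484 CPM of Gm29216 (next 24.5), 6007 CPM of Gm28437 (next 4458) and 276 CPM of Gm28438 (next 106).

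High-salt library 4 was far above the other high-salt libraries for mt-Nd1 at 4922 CPM (next 4539), for the mitochondrial complex IV genes at a sum of 27670 CPM (next 25802) and for Gm29216 at 16.2 CPM (next 11.6). High-salt library 3 was lowest for Gm28437 at 3726 CPM (next 4150).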

How the results depend on the processing

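Under the 21 alternative fits no member was called, against 0% to 0.963% of all genes, the most with array quality weights. No gene at all was called without the filter on low values, without normal-salt library 3 or without high-salt library 4. Those 3 fits could therefore call no member. The lowest adjusted p of any member in any alternative fit was 0.162 by limma. Of 41 named members 20 kept their sign under every alternative that could fit them. Leaving out 1 library at a time, the median log2 fold change ranged from -0.09 to 0.19 for nuclear members (0.185 without normal-salt library 1, -0.0912 without normal-salt library 6) and from -0.25 to -0.08 for mitochondrial members. The log2 ratio of summed CPM ranged from -0.08 to 0.19 and from -0.27 to -0.09. Higher members at an unadjusted p under 0.05 numbered 0 to 26 (the 26 without normal-salt library 1) and lower ones 0 to 1, the 1 coming without normal-salt library 2. The count of higher members was 2 in TPM (5.59% of all genes), 1 with array quality weights (7.64%), 2 centred on length (6.68%), and 18 centred on length without normal-salt library 1 (7.17%). The cause was not tested. The numbers 2, 3 and 6 occur in both diets, and the deviations of same-numbered libraries correlated at 0.208, 0.287 and 0.002. Those of libraries with different numbers correlated at -0.275 to 0.296. As the labels give no pairing, the numbers were not taken to pair the mice. Whether they mark a shared day or batch was not tested. With the replicate block over those 6 libraries 30 members were higher and 1 lower at that threshold (7.51% and 5.69% of all genes), and over the same libraries without a block 17 and 1 (6.41% and 4.11%). Median-of-ratios scaling moved the nuclear median to 0.004, and CPM over nuclear genes only to -0.001. Simulated 1.5-fold changes were often missed, and several tested members had 95% intervals that reached past that size.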
